A study of Mus musculus with 48 samples.

Results

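The fatty acid desaturases and elongases of the mouse liver were followed through 10 genes, Scd1, Scd2, Fads1, Fads2, Fads3, Elovl1, Elovl2, Elovl3, Elovl5 and Elovl6. They were found by gene name in the scanner files of the arrays, where the 10 names had 22 of the 56605 probes that were not controls, and were 10 of 37074 gene names. Of the 22 probes, 21 passed a filter on dim signals and were tested. The exception, the Elovl1 probe A_55_P2721757, was well above background on 0 of 48 arrays. Each gene had at least 1 tested probe, and its values below are those of the tested probe with the highest mean signal, called its leading probe.

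Liver total RNA of 48 male C57Bl6J mice, 20 weeks old, was hybridised with 1 array per mouse in 6 groups of 8. WT, Pparα hep-/- and Pparα-/- mice, labelled PPARaWT, PPARaLKO and PPARaKO, were fed either a control diet (CTRL) or a high fat diet (HFD) labelled as 60% fat, from lard, for 12 weeks according to the labels, whereas the study's text gives a shorter time. Pparα hep-/- mice carry floxed Pparα alleles and a Cre transgene driven by the albumin promoter, so that the gene is lost from hepatocytes and kept in other cells. Pparα-/- mice lack it in every cell. WT mice were purchased and both mutants were bred at the institute, so that genotype cannot be told apart from colony of origin, and floxed mice without Cre were not among the groups. All mice were kept at thermoneutrality and killed fed. Each group was spread over 2 wash batches, as 4 and 4 mice or as 3 and 5. In whole liver RNA, fewer cells of a type and less RNA per cell cannot be told apart.

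Signals are normalised log2 intensities, and a difference between groups is a log2 fold change with its standard error (SE) from limma, fitted to all 48 arrays with a weight per array and a term for the wash batch. Because of the weights, these differences need not equal those of the group medians. A gene was called changed at an adjusted p of at most 0.05 over the 33323 probes tested. The number of mice, not a read depth, limits the precision of an array. Hepatocyte markers (Alb, Apoa1, Ttr, Apob and Tat) had a summed signal of 839300 to 1002000 over all mice. The leading Ppara probe (A_55_P2055854) was lower in both mutants than in WT mice under the CTRL diet, with differences of -0.42 for Pparα hep-/- (adjusted p = 0.000887) and -0.65 for Pparα-/- mice (adjusted p = 1.1e-06). Its second probe (A_55_P2071596) was lower in Pparα-/- mice, by -1.11 (adjusted p = 5.27e-13), with a difference of -0.10 in Pparα hep-/- mice (adjusted p = 0.454). On the HFD the 2 probes were lower than in WT mice by -0.85 and -0.68 in Pparα hep-/- mice (adjusted p = 5.12e-10 and 3.34e-08). In Pparα-/- mice they were lower by -1.08 and -1.29 on that diet (adjusted p = 2.77e-14 and 1.74e-17). The sources used here do not place these probes against the deleted exon, so they check the labels only in part.

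The weights of the arrays ran from 0.189 to 2.53, and both of the lowest belonged to CTRL mice. Replicate 1 of the Pparα hep-/- CTRL group (weight 0.189) had a summed cholangiocyte marker signal of 29060, against 1330 to 5240 in the other 7 mice, and a macrophage marker signal of 115300, against 31990 to 49920. In the WT CTRL group, replicate 6 (weight 0.208) had 20420 against 2135 to 5229 for cholangiocyte markers and 65220 against 19670 to 56730 for macrophage markers. Scd2, Fads3 and Elovl1 lay above the other 7 mice of their group in both arrays, and Scd1, Elovl3 and Elovl6 lay below them. Leaving out both arrays together changed 2 calls among the 120 gene-by-comparison values, and both are given with the gene. The next lowest weights were those of WT HFD replicates 2 (0.343) and 6 (0.372). Their cholangiocyte signals were 25130 and 9837, and WT HFD replicate 1 had 11190, against 1510 to 2888 in the rest of the group. Replicate 6 also had the highest stellate cell (85040) and macrophage (78300) signals of the group. These arrays were left out 1 at a time and not together, and their part in the WT HFD results was not tested.

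The WT HFD group, which enters every comparison with WT mice on that diet, also stood apart in the summed white adipocyte markers. They ran from 16420 to 48080 in 6 of its 8 mice, with 1302 and 1792 in replicates 1 and 2, and from 908 to 3002 over the other 5 groups. Of the 4 tested genes of that list, Cfd (adipsin) was called in WT mice on the HFD, by 5.79 (adjusted p = 3.81e-07), and Fabp4, Retn and Lep were not (0.51, 0.06 and 0.00, adjusted p = 0.0832, 0.792 and 0.984). The defining markers Adipoq and Plin1 were below the filter. The part of this difference in the WT HFD results was not tested.

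Desaturases of the endoplasmic reticulum put a double bond into a fatty acid, with electrons passed on by cytochrome b5 and its reductase. The stearoyl-CoA desaturases Scd1 and Scd2 make monounsaturated from saturated fatty acids, while Fads1 and Fads2 act on the polyunsaturated fatty acids that come from linoleic and alpha-linolenic acid. Elongases catalyse the first and rate-limiting step of lengthening a fatty acid, and each prefers certain chains. In the liver, the nuclear receptor PPARα, which fatty acids activate, and the lipogenic factor SREBP-1c are both known to act on genes of this family, and polyunsaturated fat in the diet is known to lower several of them.

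For Scd1, Fads1 and Fads2 a further probe was set against the leading probe, and these sequences are shown because the response in WT mice differed between probes for Fads2, narrowly missed the test for Fads1, and for Scd1 the second probe is listed on the other strand. All are on chromosome 19 of mm9, in lower case, 5′ to 3′, with positions as the files give them. No annotation of that build was used, so exons, introns and untranslated regions are not assigned.
Scd1, A_55_P2743499, chr19:44471140-44471199, plus strand: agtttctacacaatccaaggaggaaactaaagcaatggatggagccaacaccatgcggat
Fads1, A_55_P2732843, chr19:10261805-10261864, plus strand: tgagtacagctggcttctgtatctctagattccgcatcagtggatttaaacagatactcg
Fads2, A_55_P2729398, chr19:10161035-10161094, minus strand: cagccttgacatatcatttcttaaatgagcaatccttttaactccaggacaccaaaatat
Fads2, A_51_P364609 (leading), chr19:10138750-10139180, minus strand: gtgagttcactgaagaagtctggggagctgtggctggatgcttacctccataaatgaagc
The 60 bases of the leading Fads2 probe are listed over a longer stretch of the chromosome than their own length. The Scd1 probe A_55_P2743499 is listed on the strand opposite to that of the leading Scd1 probe (A_52_P682382, chr19:44469387-44469446).

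In WT mice fed a HFD, 5 of the 10 genes changed, 1 higher (Elovl3) and 4 lower (Scd1, Elovl1, Elovl2 and Elovl6), where 19.5% of all 22029 gene names tested were called. In Pparα hep-/- mice 6 were lower and 0 higher, against 22.5% called of all gene names. These were Scd1, Scd2, Fads1, Fads2, Elovl2 and Elovl6. In Pparα-/- mice 3 were lower, Scd1, Elovl3 and Elovl6, against 26.4%. Scd1 and Elovl6 were thus called lower on the HFD in all 3 genotypes, Fads1 and Fads2 at their leading probes in Pparα hep-/- mice, and Elovl3 in opposite directions in WT and Pparα-/- mice. The median change of the 10 genes was -0.27, -0.61 and 0.06 in the same order, beside medians near 0 for all gene names (-0.0013, -0.015 and -0.011).

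**Figure D1:**
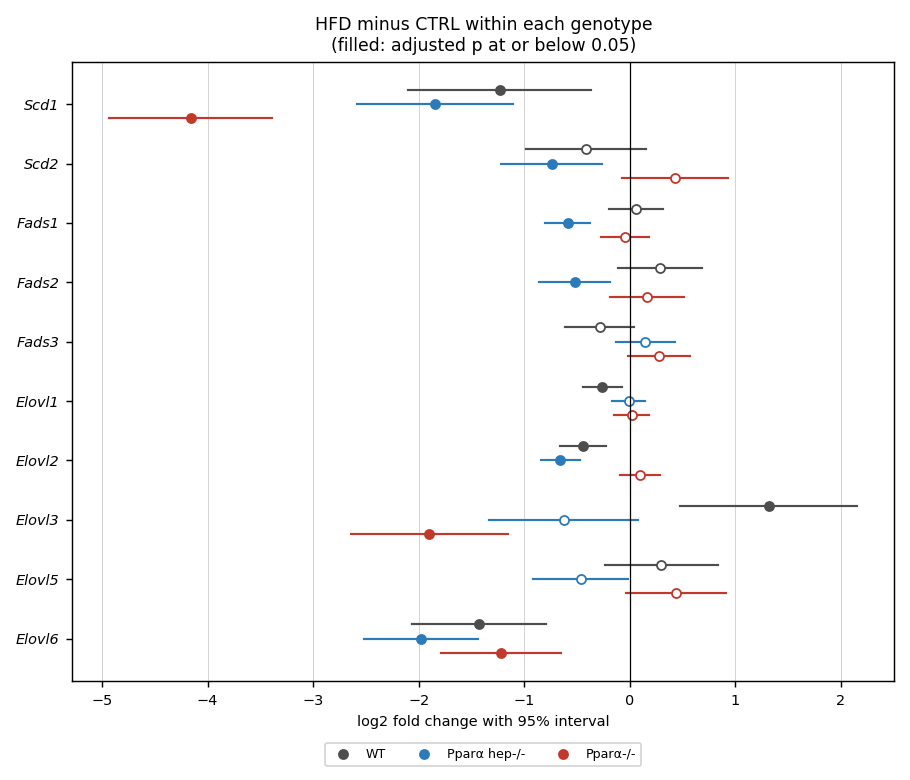
Change of each gene on the HFD within each genotype, as the log2 fold change (x axis) with its 95% interval, for WT (grey), Pparα hep-/- (blue) and Pparα-/- mice (red), with filled points at an adjusted p of at most 0.05. Scd1 in Pparα-/- mice lies farthest to the left at -4.16, Elovl6 is to the left of 0 in all 3 genotypes, and Elovl3 lies to the right in WT mice (1.32) and to the left in Pparα-/- mice (-1.90).

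Scd1, the main stearoyl-CoA desaturase of the liver, fell on the HFD in all 3 genotypes and most in Pparα-/- mice. In WT mice its signal ran from 15.67 to 17.27 (median 16.70) on the CTRL diet and from 13.78 to 16.17 (median 15.62) on the HFD. In Pparα hep-/- mice it ran from 16.89 to 17.89 (median 17.19) and from 14.27 to 16.29 (median 15.72), and in Pparα-/- mice from 14.24 to 17.03 (median 15.68) and from 9.87 to 13.17 (median 11.43). The diet groups overlapped in WT mice and were apart in both mutants, and all 8 Pparα-/- HFD mice lay below every other mouse of the study.

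The fall of Scd1 was 2.35-fold in WT mice (log2 fold change -1.23, SE 0.43, adjusted p = 0.0383), 3.60-fold in Pparα hep-/- mice (-1.85, SE 0.37, adjusted p = 0.000346) and 17.9-fold in Pparα-/- mice (-4.16, SE 0.38, adjusted p = 2.22e-10). The response of Pparα-/- mice differed from that of WT mice by -2.92 (SE 0.58, adjusted p = 6e-04) and from that of Pparα hep-/- mice by -2.31 (SE 0.53, adjusted p = 0.00871). Between Pparα hep-/- and WT mice the difference in response was -0.61 (SE 0.57, adjusted p = 0.516). Within the wash batches the change was -1.46 and -0.97 in WT, -1.48 and -1.88 in Pparα hep-/-, and -4.05 and -4.25 in Pparα-/- mice. The WT call was lost when WT CTRL replicate 1, 2, 4, 5 or 7 or WT HFD replicate 1, 4 or 7 was left out, with an adjusted p of up to 0.0981, without the filter (0.0744) and with the slide as a block (0.0542). No such omission ended the call in either mutant.

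The second Scd1 probe shown above (A_55_P2743499), listed on the opposite strand, also fell in the 3 genotypes, by -1.46, -2.08 and -2.39 (adjusted p = 0.00113, 8.56e-07 and 1.21e-07). In Pparα-/- HFD mice it was well above background on 2 of 8 arrays, with signals of 5.08 to 5.99, so that background bounds its fall there and its size cannot be set against that of the leading probe or against the other genotypes. Among the spots of the leading probe 0 were saturated.

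Scd2, a stearoyl-CoA desaturase best known from brain and from developing tissues, was higher in Pparα hep-/- mice than in WT mice on either diet. On the CTRL diet it ran from 7.85 to 10.94 (median 8.40) in WT, from 8.62 to 11.95 (median 9.41) in Pparα hep-/- and from 7.68 to 9.75 (median 8.46) in Pparα-/- mice. On the HFD it ran from 7.53 to 9.12 (median 8.03), from 8.33 to 9.10 (median 8.77) and from 8.50 to 9.25 (median 8.96) in the same order. The groups overlapped in every comparison. The HFD lowered Scd2 in Pparα hep-/- mice (-0.74, SE 0.24, adjusted p = 0.023), with values of -0.41 in WT (adjusted p = 0.342) and 0.43 in Pparα-/- mice (adjusted p = 0.209). Without Pparα hep-/- HFD replicate 6 or CTRL replicate 8 this call was lost (adjusted p of up to 0.0987), as it was without array weights (0.0677), without the filter (0.058) or on the compared groups alone (0.0581). Its response differed between the mutants by 1.17 (SE 0.35, adjusted p = 0.0467). Leaving out any of 27 of the 48 arrays ended that call (adjusted p of up to 0.113), as did fits without array weights (0.206), without the filter (0.121), with the slide as a block (0.0854), on the compared groups alone (0.0626) and with the 75th percentile (0.0505).

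Fads1 and Fads2, the desaturases of polyunsaturated fatty acid synthesis, which lie next to each other on chromosome 19, moved together across the groups. Fads1 ran from 12.89 to 13.50 (median 13.17) in WT CTRL and from 12.83 to 13.66 (median 13.07) in WT HFD mice. In Pparα hep-/- mice it ran from 13.02 to 13.69 (median 13.28) on CTRL and from 11.89 to 12.92 (median 12.72) on the HFD, and in Pparα-/- mice from 12.33 to 12.62 (median 12.41) and from 12.06 to 12.80 (median 12.39). The HFD group of Pparα hep-/- mice lay wholly below its CTRL group, and both groups of Pparα-/- mice were low. The change on the HFD was -0.59 (SE 0.11, adjusted p = 0.000118) in Pparα hep-/- mice, 0.06 (SE 0.13, adjusted p = 0.8) in WT mice and -0.05 (SE 0.11, adjusted p = 0.81) in Pparα-/- mice.

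For Fads2, WT mice ran from 12.58 to 13.97 (median 13.23) on CTRL and from 12.47 to 13.81 (median 13.36) on the HFD. Pparα hep-/- mice ran from 12.75 to 13.82 (median 13.16) and from 11.73 to 13.08 (median 12.71). Pparα-/- mice ran from 11.48 to 12.24 (median 11.75) and from 11.48 to 12.27 (median 11.92), below every other CTRL mouse on that diet and below every WT mouse on the HFD. In response to HFD, Fads2 fell in Pparα hep-/- mice (-0.52, SE 0.17, adjusted p = 0.0224), with values of 0.29 for WT and 0.16 for Pparα-/- mice (adjusted p = 0.353 and 0.54). The Pparα hep-/- call was lost without HFD replicate 1 or CTRL replicate 2 or 8 (adjusted p of up to 0.087), on the compared groups alone (0.0863) and without array weights (0.0588).

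The difference in response between Pparα hep-/- and WT mice was -0.65 (SE 0.17, adjusted p = 0.00955) for Fads1 and -0.81 (SE 0.26, adjusted p = 0.0379) for Fads2. In the wash batches it was -0.32 and -0.96 for Fads1 and -0.42 and -1.17 for Fads2. Without array weights neither passed, at an adjusted p of 0.0528 and 0.23. The Fads2 difference was also lost when WT CTRL replicate 1, 2 or 3, WT HFD replicate 3, 7 or 8, Pparα hep-/- CTRL replicate 2 or 8 or Pparα hep-/- HFD replicate 1 was left out (adjusted p of up to 0.0884), without the filter (0.129), with the replicate block (0.0994), with the slide as a block (0.0965) and on the compared groups alone (0.0838). Of the other 4 probes of Fads2, 3 passed the test of this difference (-0.74, -0.74 and -0.83), and a further Fads1 probe (A_55_P2897923) gave -0.72 (adjusted p = 0.00688). Between the mutants the response of Fads1 differed by 0.54 (SE 0.16, adjusted p = 0.0391). This call was lost without Pparα-/- HFD replicate 1, 2, 7 or 8, Pparα-/- CTRL replicate 1, 2 or 6, Pparα hep-/- CTRL replicate 2 or 8 or Pparα hep-/- HFD replicate 6 (adjusted p of up to 0.0975). It was also lost without array weights (0.136), with the replicate block (0.115), without the filter (0.0909), with the 75th percentile (0.0534) and on the compared groups alone (0.0522). For Fads2 the mutants differed by 0.68 in response, which did not pass (adjusted p = 0.113).

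A single further probe of each gene, A_55_P2729398 of Fads2 and A_55_P2732843 of Fads1, gave other values in WT mice, while the other 3 further probes of Fads2 and the other one of Fads1 were not called there. Fads2 at A_55_P2729398 ran from 10.51 to 12.27 in WT CTRL and from 9.69 to 11.00 in WT HFD mice, a change of -0.91 (SE 0.29, adjusted p = 0.0199), and changed by -1.11 (adjusted p = 0.00105) in Pparα hep-/- and 0.41 (adjusted p = 0.249) in Pparα-/- mice. The response of WT mice differed from that of the leading Fads2 probe by -1.08 on unweighted group means, in an exact two-sided permutation test (p = 0.00295, adjusted p = 0.0325 over 55 tests, with 8 of 8 HFD mice beyond the CTRL mean). The Fads1 probe A_55_P2732843 changed by -0.83 (adjusted p = 0.00978), -0.79 (adjusted p = 0.00431) and 0.01 (adjusted p = 0.977), and its difference from the leading probe in WT mice was -0.79 on unweighted means (exact permutation p = 0.0073, adjusted p = 0.0502). At these probes, therefore, WT and Pparα hep-/- mice fell on the HFD and their responses did not differ by the test (adjusted p = 0.943 for Fads1 and 0.775 for Fads2), whereas A_55_P2729398 responded differently in Pparα-/- mice than in WT mice, by 1.32 (adjusted p = 0.0166).

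**Figure D2:**
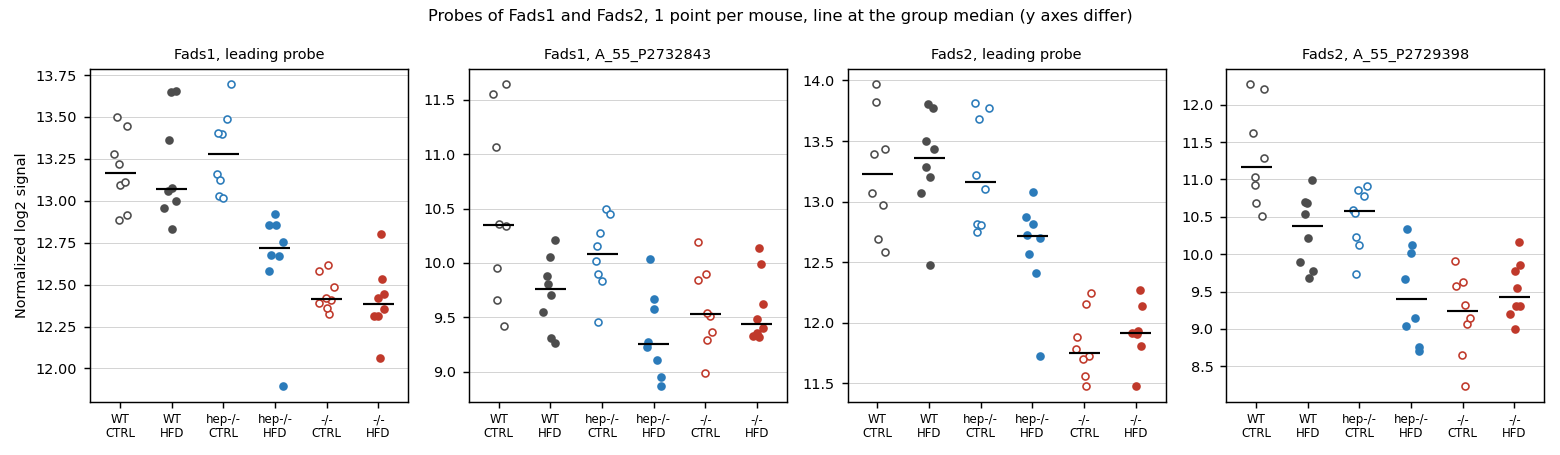
Normalised log2 signal (y axes, which differ) of the leading probes of Fads1 and Fads2, of A_55_P2732843 (Fads1) and of A_55_P2729398 (Fads2) in each mouse of the 6 groups, with a line at the group median. At A_55_P2732843 and A_55_P2729398 the WT HFD mice sit lower than the WT CTRL mice (medians 9.76 against 10.35 for Fads1 and 10.38 against 11.16 for Fads2), while at the leading probes the medians are 13.07 against 13.17 and 13.36 against 13.23.

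Fads3, a relative of Fads1 and Fads2 in the same gene cluster, was not called in any genotype on the HFD. It ran from 7.72 to 10.03 (median 8.00) and from 7.52 to 8.10 (median 7.76) in WT mice on CTRL and HFD, from 7.80 to 9.63 (median 8.15) and from 7.78 to 8.78 (median 8.07) in Pparα hep-/- mice, and from 7.24 to 8.41 (median 7.93) and from 7.70 to 8.56 (median 8.12) in Pparα-/- mice. The changes were -0.28, 0.15 and 0.28 (adjusted p = 0.242, 0.478 and 0.158) in WT, Pparα hep-/- and Pparα-/- mice. The Pparα hep-/- value changed sign to -0.14 without array weights (adjusted p = 0.84). On the HFD it was higher than in WT mice by 0.49 (SE 0.14, adjusted p = 0.00875) in Pparα hep-/- and by 0.45 (SE 0.14, adjusted p = 0.00904) in Pparα-/- mice. Both were lost without array weights (adjusted p = 0.328 and 0.211), and the first without the filter (0.0785) or without Pparα hep-/- HFD replicate 6 (0.0532). A second Fads3 probe (A_55_P1976097) did not repeat them (0.12 and 0.06, adjusted p = 0.537 and 0.752).

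Elovl6, the elongase of saturated and monounsaturated fatty acids in lipogenesis, fell on the HFD in all 3 genotypes. WT mice ran from 12.38 to 14.26 (median 12.88) on CTRL and from 11.27 to 12.36 (median 11.75) on the HFD, Pparα hep-/- mice from 12.31 to 15.19 (median 13.53) and from 10.85 to 12.13 (median 11.84), and Pparα-/- mice from 10.83 to 13.17 (median 11.41) and from 9.41 to 11.09 (median 10.12). Diet groups were apart in WT and Pparα hep-/- mice, and overlapped in Pparα-/- mice. The fall was 2.69-fold (-1.43, SE 0.32, adjusted p = 0.00105), 3.93-fold (-1.98, SE 0.27, adjusted p = 1.43e-06) and 2.33-fold (-1.22, SE 0.28, adjusted p = 0.00134). The response differed by -0.55 between Pparα hep-/- and WT mice, by 0.21 between Pparα-/- and WT mice and by 0.76 between the mutants, and none of these was called (adjusted p = 0.415, 0.785 and 0.322). In the wash batches the change was -1.92 and -0.86 in WT, -1.63 and -2.04 in Pparα hep-/- and -1.90 and -0.64 in Pparα-/- mice. In the second batch alone neither the WT nor the Pparα-/- change passed (adjusted p = 0.302 and 0.278).

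Elovl3, an elongase of saturated and monounsaturated very long chains that is known in liver for its daily rhythm and its higher level in males, had the most divided response. It ran from 8.38 to 11.57 (median 10.66) in WT CTRL and from 10.58 to 12.79 (median 11.74) in WT HFD mice. In Pparα hep-/- mice it ran from 8.49 to 12.42 (median 11.74) and from 9.90 to 12.26 (median 10.97), and in Pparα-/- mice from 10.32 to 12.54 (median 10.73) and from 7.57 to 10.53 (median 9.22). The diet groups of every genotype overlapped. Elovl3 rose 2.49-fold in WT mice (1.32, SE 0.42, adjusted p = 0.0205), fell 3.73-fold in Pparα-/- mice (-1.90, SE 0.37, adjusted p = 0.000216) and changed by -0.63 in Pparα hep-/- mice (SE 0.35, adjusted p = 0.21).

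The response of Elovl3 in Pparα-/- mice differed from that in WT mice by -3.22 (SE 0.56, adjusted p = 0.000144), and was -2.64 and -3.70 within the wash batches. That in Pparα hep-/- mice differed from WT by -1.94 (SE 0.55, adjusted p = 0.0181), with -1.95 in both batches. The Pparα hep-/- difference was lost without array weights (adjusted p = 0.265), without WT HFD replicate 7 (0.0507), without the filter (0.0609) and with the replicate block (0.0531). The rise in WT mice was lost without WT CTRL replicate 2 or 3 or WT HFD replicate 7 or 8 (adjusted p of up to 0.071), without array weights (0.0661), with the replicate block (0.0603) and without the filter (0.0516). The summed signal of 6 male-high liver genes ran from 477700 to 693900 in Pparα-/- HFD mice and from 826200 to 1033000 in WT HFD mice, and 5 of these 6 genes were called lower on the HFD in Pparα-/- mice, with Hsd3b5 at -3.64, against 3 of 6 in Pparα hep-/- and 0 in WT mice, where 26.4%, 22.5% and 19.5% of all gene names were called. No clock gene of 9 tested was called on the HFD in either mutant, and 1 was lower in WT mice. The high adipocyte marker signal of the WT HFD mice, given above and called for Cfd alone, stands beside their Elovl3 values too. Within groups Elovl3 had a negative r over the 48 mice with cholangiocyte markers (r = -0.59, rho = -0.42, permutation p = 0.00017 and 0.00303, adjusted p = 0.000927 for r, r = -0.48 without the farthest 2), macrophage markers (r = -0.52, rho = -0.41, permutation p = 0.00046 and 0.00449, adjusted p = 0.00184 for r, r = -0.37) and stellate cell markers (r = -0.46, rho = -0.25, permutation p = 0.00163 and 0.0845, adjusted p = 0.00575 for r, r = -0.29), and its r with adipocyte markers was -0.001 (rho = 0.02, permutation p = 0.993 and 0.913, r = -0.07). Macrophage and stellate cell markers were higher in the Pparα-/- HFD mice, in which Elovl3 was low. The part of these lists in the Elovl3 result was not tested.

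Elovl1, an elongase of saturated very long chains found in most tissues, differed little. It ran from 13.83 to 14.79 (median 14.06) in WT CTRL and from 13.60 to 14.29 (median 13.92) in WT HFD mice, and over 13.72 to 14.59 in the other 4 groups. A fall of -0.26 (SE 0.09, adjusted p = 0.039) in WT mice fed a HFD was the only call among its 12 comparisons. It was lost without WT CTRL replicate 3, 4, 6 or 8 or WT HFD replicate 4, 5, 7 or 8 (adjusted p of up to 0.117) and without both arrays of lowest weight (0.0544). It was also lost on the compared groups alone (0.151), without array weights (0.121), without the filter (0.119), with the slide as a block (0.0939), without the wash batch term (0.0776) and with the replicate block (0.0586). A second probe (A_55_P2022861) changed by -0.32 (adjusted p = 0.00261).

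Elovl2, which lengthens the longest polyunsaturated fatty acids on the way to docosahexaenoic acid, fell on the HFD in WT and Pparα hep-/- mice. WT mice ran from 13.92 to 15.10 (median 14.53) and from 13.56 to 14.47 (median 14.08), and Pparα hep-/- mice from 13.96 to 14.40 (median 14.22) and from 13.26 to 13.88 (median 13.57). Pparα-/- mice ran from 13.16 to 13.67 (median 13.39) on CTRL and from 13.35 to 13.69 (median 13.52) on the HFD, at the level that Pparα hep-/- mice had on the HFD. The change was -0.44 (SE 0.11, adjusted p = 0.00259) in WT, -0.66 (SE 0.09, adjusted p = 2.23e-06) in Pparα hep-/- and 0.10 (SE 0.10, adjusted p = 0.491) in Pparα-/- mice. The response of Pparα-/- mice differed from that of WT mice by 0.54 (SE 0.14, adjusted p = 0.00908) and from that of Pparα hep-/- mice by 0.75 (SE 0.13, adjusted p = 0.000526). Scaling the processed signal to its 75th percentile took the first of these to 0.44 (adjusted p = 0.0598).

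Elovl5, the elongase that acts between the Fads2 and Fads1 steps, was not called on the HFD in any genotype. It ran from 13.36 to 14.29 (median 13.78) and from 12.51 to 14.74 (median 14.19) in WT mice, from 14.00 to 15.11 (median 14.79) and from 13.00 to 14.81 (median 14.29) in Pparα hep-/- mice, and from 12.90 to 14.96 (median 13.23) and from 13.19 to 14.29 (median 13.69) in Pparα-/- mice. The changes were 0.30, -0.47 and 0.44 (adjusted p = 0.496, 0.138 and 0.173). The Pparα hep-/- value passed with median centring (adjusted p = 0.0494) and with the 75th percentile (0.0425).

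**Figure D3:**
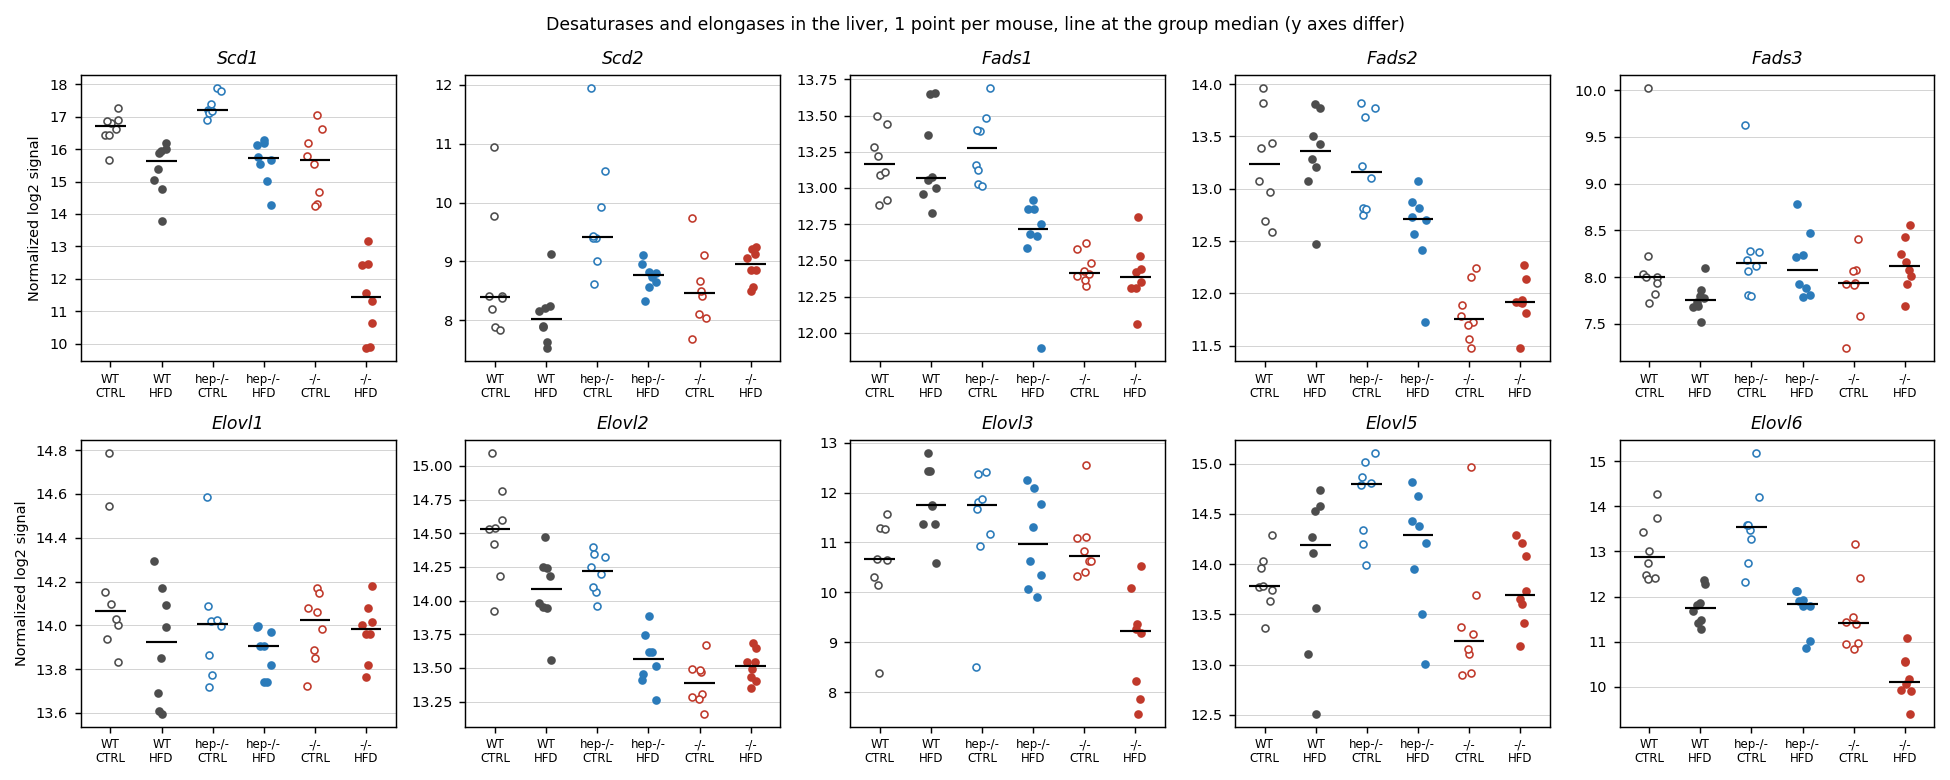
Normalised log2 signal (y axes, which differ) of the leading probe of the 10 genes in each mouse, with a line at the group median, for CTRL (open) and HFD (filled) mice of each genotype. The Pparα-/- HFD mice stand apart for Scd1 (9.87 to 13.17), and for Fads3 the highest points in the CTRL groups are WT replicate 6 (10.03) and Pparα hep-/- replicate 1 (9.63).

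The genotypes were next compared on each diet, with the same groups of mice entering several comparisons. On the CTRL diet 3 of the 10 genes differed between Pparα hep-/- and WT mice, 2 higher and 1 lower, against 25.2% called of all gene names. Scd2 was higher by 1.09 (SE 0.27, adjusted p = 0.00235, 2.13-fold) and Elovl5 by 0.79 (SE 0.26, adjusted p = 0.0193, 1.73-fold), and Elovl2 was lower by -0.40 (SE 0.10, adjusted p = 0.00341). By any tested probe Fads2 (A_55_P2729398, -0.97, adjusted p = 0.00817) and Fads1 (A_55_P2732843, -0.63, adjusted p = 0.0392) were lower too, whereas their leading probes were at 0.02 and 0.04 (adjusted p = 0.961 and 0.843). Scd1 did not pass (0.70, adjusted p = 0.238), though it did in 1 of 13 settings (adjusted p = 0.0204). The Elovl5 call was lost without WT CTRL replicate 1 or Pparα hep-/- CTRL replicate 8 (adjusted p of up to 0.0637), and of its other probes A_55_P2522620 passed (0.69, adjusted p = 0.016) and A_55_P2718343 did not (0.26, adjusted p = 0.265). The latter was well above background on 3 of 8 WT CTRL and 6 of 8 Pparα hep-/- CTRL arrays. It passed the filter through the Pparα hep-/- CTRL group alone, so that background bounds its difference. Beside the higher Scd2, the summed macrophage signal had a median of 38910 in Pparα hep-/- CTRL and 25950 in WT CTRL mice, and the stellate cell signal one of 30310 and 24060, with 1 of 6 and 1 of 5 of these markers called higher. Their part in the Scd2 difference was not tested. In the wash batches the 3 differences of the genes were 0.77 and 1.37, 0.28 and 1.13, and -0.55 and -0.27.

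In Pparα-/- mice 5 genes were lower than in WT mice on the CTRL diet and 0 higher, against 35.3% called of all gene names. Elovl6 was 3.40-fold lower (-1.76, SE 0.32, adjusted p = 2.17e-05), Fads2 2.59-fold (-1.37, SE 0.20, adjusted p = 3.61e-07) and Elovl2 2.32-fold (-1.21, SE 0.11, adjusted p = 2.14e-12). Fads1 (-0.79, adjusted p = 2.75e-06) and Scd1 (-1.40, adjusted p = 0.0108) were lower too. Elovl5 did not pass (-0.54, adjusted p = 0.121), though it did in 1 of 13 settings (adjusted p = 0.0345). For Fads1, Fads2 and Elovl2 all 8 Pparα-/- mice lay below all 8 WT mice. The share of all gene names without overlap was not computed for this or any other comparison. The Scd1 call was lost without Pparα-/- CTRL replicate 6 (adjusted p = 0.0524), and its difference was -0.66 in wash batch 1 and -2.06 in wash batch 2. All of the other 4 Fads2 probes and both other Fads1 probes were called lower as well, and 2 of the Fads2 probes (A_55_P2739989 and A_65_P20641) differed from the leading one by -0.47 and -0.50 on unweighted means (exact permutation, adjusted p = 0.0325 and 0.0228).

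Set against Pparα hep-/- mice on the CTRL diet, Pparα-/- mice were lower for 7 genes and higher for 0, against 26.6%. These were Elovl6 (-2.24), Scd1 (-2.09), Fads2 (-1.39), Elovl5 (-1.33), Scd2 (-0.997), Fads1 (-0.84) and Elovl2 (-0.81), with adjusted p from 8.91e-09 to 0.00264. Fads1, Fads2 and Elovl2 did not overlap between these groups. Elovl3 did not pass (-0.96, adjusted p = 0.0571). It passed in 6 of 13 settings, without both arrays of lowest weight (0.0272) among them, and was -0.41 without array weights (adjusted p = 0.616). It also passed without WT CTRL replicate 6, Pparα-/- CTRL replicate 3, Pparα hep-/- CTRL replicate 1, 2 or 8 or Pparα hep-/- HFD replicate 6, each left out alone (lowest adjusted p = 0.0311).

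On the HFD 6 genes differed between Pparα hep-/- and WT mice, against 28.6% called of all gene names. Fads2 (-0.79, SE 0.17, adjusted p = 0.000631), Elovl2 (-0.62, SE 0.10, adjusted p = 4.22e-06), Fads1 (-0.61, SE 0.11, adjusted p = 6.1e-05) and Elovl3 (-1.01, SE 0.37, adjusted p = 0.0352) were lower, and Scd2 (0.77, SE 0.25, adjusted p = 0.0177) and Fads3 were higher. Without array weights Scd2, Fads3 and Elovl3 were lost (adjusted p = 0.262, 0.328 and 0.323), and so they were without the filter (0.0801, 0.0785 and 0.114). The Elovl3 call was also lost without WT HFD replicate 5, 7 or 8 or Pparα hep-/- HFD replicate 1, 2, 4 or 5 (adjusted p of up to 0.12), without the wash batch term (0.0861), with the replicate block (0.0735), on the compared groups alone (0.0554) and with the authors' log2 values (0.0504).

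Between Pparα-/- and WT mice on the HFD 8 genes differed, 6 lower and 2 higher, against 47.8%. Scd1 was 20.0-fold lower (-4.32, SE 0.38, adjusted p = 4.58e-13), Elovl3 9.47-fold (-3.24, SE 0.36, adjusted p = 5.25e-10), Elovl6 2.94-fold (-1.56, SE 0.28, adjusted p = 9.27e-06) and Fads2 2.83-fold (-1.50, SE 0.17, adjusted p = 1.08e-09). Fads1 (-0.90) also lay wholly below WT, while Elovl2 (-0.67) overlapped. Scd2 (0.94, adjusted p = 0.00156) and Fads3 were higher, and neither passed without array weights (adjusted p = 0.0576 and 0.211). In the wash batches Scd1 differed by -3.25 and -5.35, and Elovl3 by -2.42 and -3.96.

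Compared to Pparα hep-/- mice on the HFD, Pparα-/- mice were lower for 5 genes and higher for 0, against 31.9%. They were Scd1 (21.2-fold, -4.41, SE 0.35, adjusted p = 4.35e-14), Elovl3 (4.70-fold, -2.23, adjusted p = 1.01e-06), Elovl6 (2.80-fold, -1.48, adjusted p = 1.24e-05), Fads2 (-0.71, adjusted p = 0.00059) and Fads1 (-0.29, adjusted p = 0.0264). The Fads1 call was lost without Pparα hep-/- HFD replicate 3, 5, 6 or 7 or Pparα-/- HFD replicate 3 or 7 (adjusted p of up to 0.1), without the wash batch term (0.145), without array weights (0.0963), on the compared groups alone (0.08) and without the filter (0.066). Elovl2 did not pass (-0.05, adjusted p = 0.697).

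**Figure D4:**
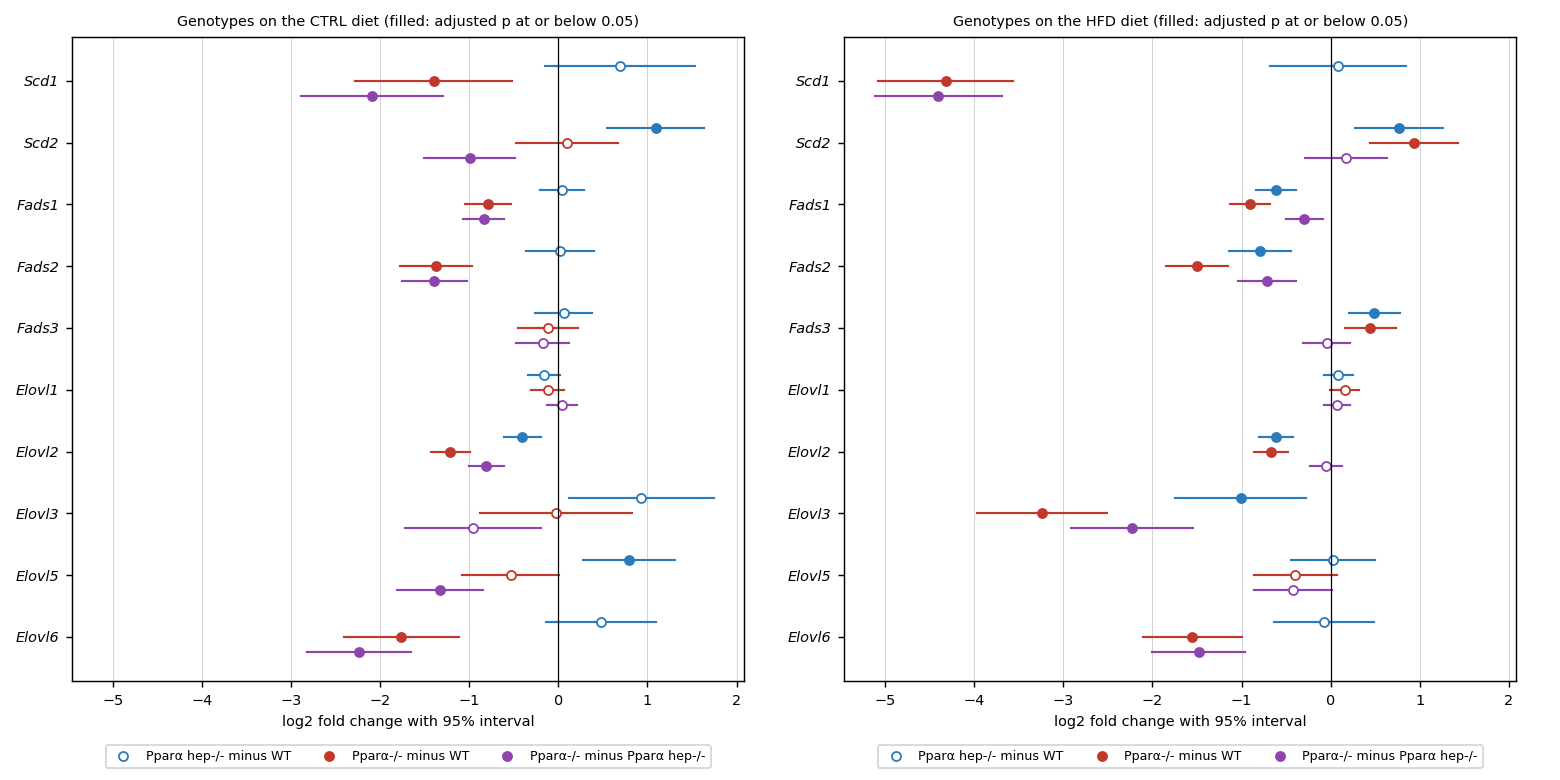
Differences between genotypes on the CTRL diet (left) and the HFD (right) as log2 fold changes (x axis) with 95% intervals, for Pparα hep-/- minus WT (blue), Pparα-/- minus WT (red) and Pparα-/- minus Pparα hep-/- (purple), filled at an adjusted p of at most 0.05. Fads1, Fads2, Elovl2 and Elovl6 of Pparα-/- mice lie left of 0 against WT on both diets, and Scd1 moves from -1.40 on CTRL to -4.32 on the HFD.

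Tests of the difference in response to HFD were called for 3 of the 10 genes between Pparα hep-/- and WT mice (Fads1, Fads2 and Elovl3, against 11.2% of all gene names), for 3 between Pparα-/- and WT mice (Scd1, Elovl2 and Elovl3, against 15.5%, with Fads2 and Elovl1 added by a further probe) and for 4 between the mutants (Scd1, Scd2, Fads1 and Elovl2, against 3.93%, with Fads2 added by 3 further probes). These comparisons share groups of mice and their counts are not independent.

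Markers of other liver cells moved with some of the genes. Over the 48 mice, after group and wash batch means were removed, Scd2 was correlated with the summed stellate cell and fibroblast markers (Col1a1, Col3a1, Lrat, Des and Dcn; r = 0.77, rho = 0.75, permutation p = 1e-05 for both, the smallest the resamples can give, adjusted p = 0.00012 over 60 relations). Without the 2 mice farthest out, r was 0.74. Fads3 was correlated with the same list (r = 0.74, rho = 0.72, permutation p = 1e-05 for both, and 0.74 without the farthest 2). Elovl1 was correlated with the cholangiocyte markers (Krt19, Krt7, Epcam and Spp1; r = 0.75, rho = 0.64, permutation p = 1e-05 for both, and 0.66 without the farthest 2).

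All 6 macrophage markers and all 5 stellate cell markers were higher in Pparα-/- than in WT mice on the HFD, as were 5 and 4 of them in Pparα hep-/- mice, against 47.8% and 28.6% of all gene names called. These were the comparisons in which Scd2 and Fads3 were also higher. The summed stellate cell signal ran from 39050 to 60360 in Pparα-/- HFD mice and from 33960 to 63770 in Pparα hep-/- HFD mice, against 13770 to 85040 in WT HFD mice with a median of 19010. Endothelial markers (Cdh5, Kdr, Pecam1 and Stab2) did not overlap between Pparα-/- and WT mice on the HFD, with summed signals of 11900 to 14420 and 5301 to 8560, and 3 of the 4 were called higher. The groups were apart in the same direction on CTRL, with 8230 to 12170 in Pparα-/- mice, 6170 to 7864 in Pparα hep-/- mice and 4757 to 6880 in WT mice, where Pparα-/- mice lay above both others, and on the HFD against Pparα hep-/- mice (7215 to 10120). The part of these cells in the values of the 10 genes was not tested. Scd2 was correlated with the macrophage markers too (r = 0.76, rho = 0.71, permutation p = 1e-05 for both, and 0.70 without the farthest 2).

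Genes of polyunsaturated fatty acid synthesis and Elovl6 were correlated with other lists. Fads2 and Elovl5 had their largest correlation with the adipocyte markers (Fads2: r = 0.54, rho = 0.60, permutation p = 3e-05 for both, adjusted p = 0.000257, r = 0.51 without the farthest 2; Elovl5: r = 0.58, rho = 0.53, permutation p = 0.00014 and 0.00017, adjusted p = 9e-04 for r, r = 0.41). Of the adipocyte list only Cfd was called in WT mice on the HFD, so the sum need not follow adipocyte content. WT HFD replicates 1 and 2, the mice with the low summed signal of that list, had the lowest Fads2 (12.47 and 13.07) and Elovl5 (12.51 and 13.10) of their group. With the endothelial markers, Elovl6 had r = 0.53 (rho = 0.57, permutation p = 0.00015 and 1e-04, r = 0.53 without the farthest 2). Elovl5 had r = 0.54 (rho = 0.48, permutation p = 0.00024 and 0.00093, r = 0.46) and Fads1 r = 0.47 (rho = 0.43, permutation p = 0.00221 and 0.00456, r = 0.47) with the same list. Elovl2, which was lower in both mutants on the HFD, had negative correlations with cholangiocyte markers (r = -0.47, rho = -0.52, permutation p = 0.00184 and 0.00054, adjusted p = 0.00613 for r, r = -0.59 without the farthest 2) and macrophage markers (r = -0.45, rho = -0.38, permutation p = 0.00524 and 0.0129, adjusted p = 0.015 for r, r = -0.43), and a positive one with hepatocyte markers (r = 0.47, rho = 0.46, permutation p = 0.00785 and 0.00316, adjusted p = 0.0205 for r, r = 0.49). The part of these lists in the Elovl2 result was not tested. For Scd1 the largest correlation was with the endothelial list (r = 0.37, rho = 0.36, permutation p = 0.00978 and 0.0148, adjusted p = 0.0235 and 0.0341, r = 0.30).

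**Figure D5:**
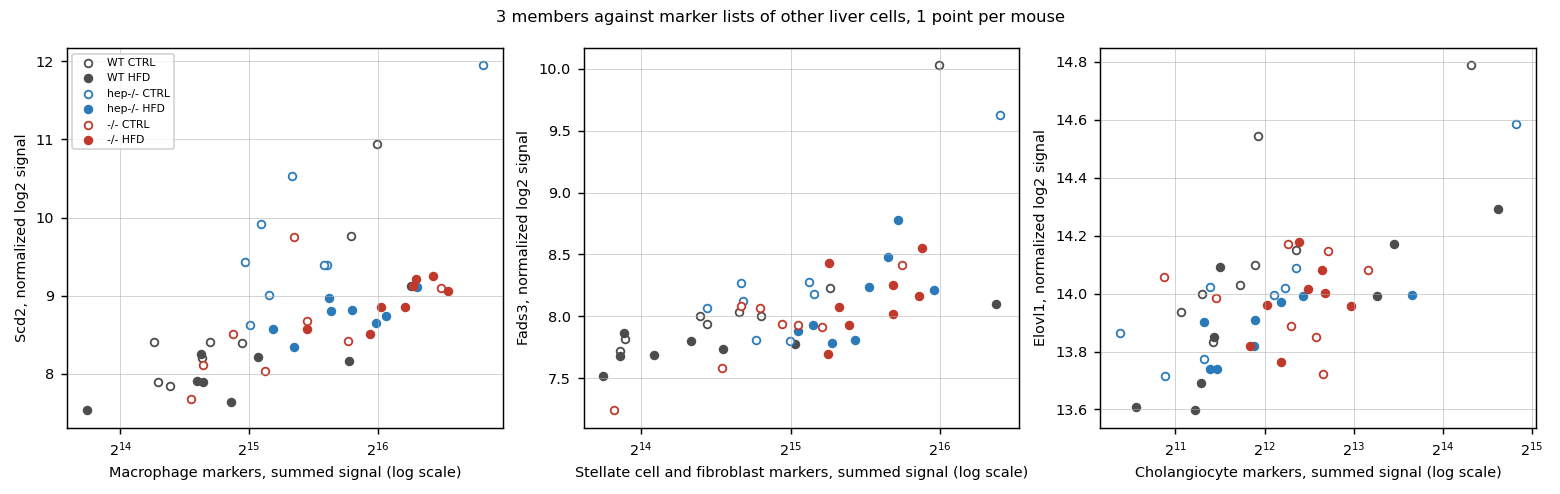
Normalised log2 signal (y axes) of Scd2, Fads3 and Elovl1 in each mouse against the summed signal (x axes, log scale) of macrophage, stellate cell and cholangiocyte markers, with open symbols for CTRL and filled symbols for HFD mice. In the panels of Scd2 and Elovl1 Pparα hep-/- CTRL replicate 1 (11.95 and 14.59) and WT CTRL replicate 6 (10.94 and 14.79) are the highest of their groups.

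Among the 10 genes themselves, 22 of 45 pairs were correlated within groups by permutation at an adjusted p of at most 0.05, 18 of them positively. The share among pairs of other genes was not computed, so the count does not set these 10 genes apart. Scd2 with Fads3 (r = 0.82, rho = 0.733, permutation p = 1e-05 for both, r = 0.66 without the farthest 2 mice) were the closest by r. By rho, Fads2 with Elovl5 were the closest (0.736). Fads1 and Fads2 were both close to Elovl5, the enzyme between them in the pathway (r = 0.74 and 0.73, rho = 0.67 and 0.74, permutation p = 1e-05 for all, r = 0.64 without the farthest 2 in both), and to each other (r = 0.67, rho = 0.61, permutation p = 2e-05 and 3e-05, r = 0.55). Each of these 3 pairs had a positive r in 6 of 6 groups. Fads3 with Elovl3 (r = -0.55, rho = -0.24, permutation p = 0.00319 and 0.114) had r = -0.21 without the 2 mice farthest out for Fads3.

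Further genes of the pathway were taken from lists of enzymes by function, whose counts stand beside the shares of all gene names called in the same comparison, 19.5%, 22.5% and 26.4% for the HFD in WT, hepatocyte-deleted and Pparα-/- mice, and 35.3% and 47.8% for Pparα-/- against WT on CTRL and on the HFD. Of 9 lipogenic enzymes and regulators, 2 were lower on the HFD in WT mice, whereas 5 fell in Pparα hep-/- mice, and 4 fell and 1 rose in Pparα-/- mice (medians -0.42, -0.81 and -0.59). Fasn, the fatty acid synthase, fell by -1.09, -1.47 and -1.19 (adjusted p = 0.029, 0.000713 and 0.00556), and Acaca, which makes its malonyl-CoA, by -1.03, -0.996 and -0.58 (adjusted p = 0.000543, 0.000129 and 0.0217). In Pparα-/- mice 6 of the 9 were lower than in WT mice on CTRL, and 7 were lower and 1 higher on the HFD (35.3% and 47.8% of all gene names). The higher one was the liver X receptor Nr1h3 (0.15, adjusted p = 0.00359), and Me1, the malic enzyme that supplies NADPH, was lower on the HFD by -3.04 (adjusted p = 3.23e-09). Acaca and Fasn were also the genes whose pattern over the 48 arrays was most like that of Elovl6 (Pearson r = 0.95 and 0.92, among 17095 other gene names, wash batch means removed).

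The elongation cycle is completed by Hsd17b12, the Hacd dehydratases and Tecr. Of these 6 genes, 2 rose on the HFD in WT mice, Hsd17b12 by 0.43 (adjusted p = 0.00286) and Hacd3 by 0.24 (adjusted p = 0.0228). In Pparα hep-/- mice 1 fell, Tecr by -0.38 (adjusted p = 0.000327), and in Pparα-/- mice 1 rose and 1 fell. On the HFD 4 of 6 were lower and 1 higher than in WT mice in each mutant, where 28.6% of all gene names were called for Pparα hep-/- and 47.8% for Pparα-/- mice. Hsd17b12 was lower by -0.79 and Hacd3 by -0.70 in Pparα-/- mice (adjusted p = 1.42e-09 and 7.39e-12), while Hacd4 was higher by 1.14 (adjusted p = 3.08e-08).

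Cytochrome b5 and its reductases supply the desaturases with electrons, and 5 of 6 listed genes were tested. Cyb5a rose on the HFD in all 3 genotypes, by 0.33, 0.20 and 0.26 (adjusted p = 0.000227, 0.00862 and 0.000876). The reductase Cyb5r3 fell by -0.51 in Pparα hep-/- mice (adjusted p = 1.63e-05), with -0.05 in WT and -0.20 in Pparα-/- mice (adjusted p = 0.792 and 0.0769). On the HFD 3 of the 5 were higher and 2 lower in Pparα-/- than in WT mice, against 47.8% of all gene names.

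The last steps to docosahexaenoic acid take place in peroxisomes. Of 8 genes for peroxisomal transport and beta-oxidation, 7 were higher on the HFD in WT mice, while 4 rose in Pparα hep-/- mice and 3 in Pparα-/- mice, and 0 were lower (medians 0.51, 0.19 and 0.28), against 19.5%, 22.5% and 26.4% of all gene names. Acaa1a and Hsd17b4, a thiolase and the bifunctional protein, rose in all 3 genotypes, by 0.78, 0.54 and 0.64 and by 0.57, 0.59 and 0.43. Pparα-/- mice were lower than WT mice for 5 of 8 on either diet (35.3% and 47.8% of all gene names), with the transporter Abcd2 at -2.46 on the HFD (adjusted p = 2.24e-12). Of 6 genes known as PPARα targets, 5 rose on the HFD in WT mice, with Cyp4a14 at 2.56 and Vnn1 at 2.39 (adjusted p = 2.54e-05 and 1.93e-05), and 3 rose and 1 fell in Pparα hep-/- mice while 4 rose in Pparα-/- mice.

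Among 6 other tested members of both families, Elovl7 rose on the HFD in both mutants, by 1.14 with hepatocyte deletion and 1.06 with whole-body deletion (adjusted p = 0.00208 and 0.00432), with -0.24 in WT mice (adjusted p = 0.67). These responses differed from that of WT mice by 1.38 and 1.30 (adjusted p = 0.0262 and 0.0305). Fads6 was lower in Pparα-/- than in WT mice by -0.49 on CTRL and -0.75 on the HFD (adjusted p = 1.01e-07 and 1.21e-14). The Scd3 probe A_55_P2099594 followed Scd1 over the 48 arrays (Pearson r = 0.97) and fell by -1.50, -2.08 and -2.86 on the HFD, but the files list a transcript of Scd1 for it as well, so that the signals of both genes cannot be told apart.
Scd3, A_55_P2099594, chr19:44289995-44290054 of mm9, plus strand: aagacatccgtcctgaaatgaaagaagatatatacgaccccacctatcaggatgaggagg
A second Scd3 probe (A_55_P2052759) changed by 0.21, -0.15 and -0.24 (adjusted p = 0.145, 0.206 and 0.0403).

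By likeness of pattern over the 48 arrays, given as a description, Sc5d, an enzyme of cholesterol synthesis, came first for both Fads1 and Fads2 (Pearson r = 0.85 and 0.87). For Fads1 it was followed by Paqr9 and Fdps (0.84 and 0.83), and for Fads2 by Trappc4 and Cox7a1 (0.85 and 0.85). Slc25a24 was near the top for both Scd2 and Fads3 (0.83 and 0.89). The closest genes were Gm35986 for Scd1 after Scd3 (0.86), Tinag for Scd2 (0.84), Zfp251 for Elovl1 (0.85), Nop10 for Elovl2 (0.89), Cyp27a1 for Elovl3 (0.81) and Haus7 for Elovl5 (0.81). The arrays share the 6 groups, so that these values mix differences between groups with those within them.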

How the data were processed

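Total RNA of 48 livers was hybridised to 1-colour (Cy3) Agilent arrays. Intensities are those the authors deposited as scanner output of Feature Extraction 10.10.1.1, with positions on mm9. A deposited log2 table, normalised by the authors with limma, served as an alternative (r with the values here 0.9994 to 0.9995 by array).

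The median signal was taken as log2, outlier spots were dropped (195 missing values, 0 for the 10 genes), spots of a probe were averaged, and probes that Feature Extraction called well above background in 4 or more of the 8 mice of any group were kept and quantile normalised. Background medians were 20 to 36, against median signals of 56 to 91. limma 3.58.1 (R 4.3.3) fitted group means, wash batch and array weights, with Benjamini-Hochberg adjustment within a comparison. The scripts were tested on simulated data. Groups came from the labels. Nothing states whether mice of a group were independent litters, so that p-values measure the spread between these mice.

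Correlations used residuals after group and wash batch, with 100000 permutations within groups (scipy 1.17.1, numpy 2.4.6, pandas 2.3.3). The farthest 2 mice were those farthest from the median of the first-named gene of a pair, or of the summed markers. Figures were drawn with matplotlib 3.10.9. All 10 genes are named by their leading probe with disagreeing probes beside it; of the lists, the 2 members with the smallest adjusted p in a comparison and those a result needed are named. Members and lists were chosen with earlier results of these data known. Alternatives covered weights, scaling, background, filter, wash batch, slide, replicate block, groups fitted, the authors' values and each array left out.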

Additional observations from a re-analysis of the deposited data

Results flagged for a closer look

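In 9 of the 60 groups examined (10 genes in 6 groups of 8 mice), 1 mouse lay apart from the other 7 by Dixon's criterion, where chance gives about 1 in 20 groups. The 9 values came from 5 arrays. Replicate 1 of the Pparα hep-/- CTRL group stood apart for Fads3 (log2 signal 9.6277), Elovl1 (14.586) and Elovl3 (8.4932), and WT CTRL replicate 6 for Fads3 (10.029) and Elovl3 (8.3844). These are also the arrays of lowest weight. Pparα-/- CTRL replicate 3 was high for Elovl3 (12.545) and Elovl5 (14.964). WT HFD replicate 6 was high for Scd2 (9.1236), with a summed macrophage marker signal of 78300, the highest of its group, and Pparα hep-/- HFD replicate 1 was low for Fads1 (11.893).

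The response to HFD differed between genotypes, by a test of the difference itself, in 10 cases. Between Pparα hep-/- and WT mice it differed by -0.653 for Fads1, -0.808 for Fads2 and -1.94 for Elovl3. Between Pparα-/- and WT mice the differences were -2.92 for Scd1, 0.543 for Elovl2 and -3.22 for Elovl3. Between the mutants they were -2.31 for Scd1, 1.17 for Scd2, 0.544 for Fads1 and 0.754 for Elovl2.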

How the results depend on the processing

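No direction of a called value turned under any setting run. Of 5760 gene-by-comparison values with 1 array left out, 5660 kept their side of the threshold, 89 lost the call and 11 gained one. Leaving out 1 array moved the count of called genes on the HFD between 2 and 5 in WT, between 4 and 6 in Pparα hep-/- and from 3 to 3 in Pparα-/- mice. For genotypes on CTRL the counts were 2 to 3 (Pparα hep-/- against WT), 4 to 5 (Pparα-/- against WT) and 7 to 8 (between mutants), and on the HFD 5 to 6, 8 to 9 and 4 to 6. For differences in response they were 1 to 3, 3 to 4 and 2 to 4.

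Without array weights 15 of 120 values lost their call, and the counts went from 5 to 3 (HFD in WT), from 6 to 3 (Pparα hep-/- against WT on the HFD), from 3 to 0 (limma, difference in response of Pparα hep-/- and WT mice) and from 4 to 2 (difference between mutants). Without the filter 12 were lost, with counts of 2, 3, 1 and 2 in the same order. Within wash batch 1, with about 4 mice a group, the counts were 3 (HFD in WT), 2 (HFD in Pparα hep-/-), 1 and 3 (Pparα hep-/- against WT and between mutants on CTRL), 0 (Pparα hep-/- against WT on the HFD) and 0 for the differences of Pparα hep-/- from WT and between mutants. Within wash batch 2 they were 0 for HFD in WT, and 1 for each of these differences in response. The slide as a block gave 3 for HFD in WT, the 75th percentile 2 and the fit of the compared groups alone 2 for the difference between mutants. Counting a gene by any tested probe gave 5 for Pparα hep-/- against WT on CTRL and 5 for the difference between Pparα-/- and WT.

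Replicate numbers did not pair the mice (120 same-numbered pairs, median r 0.0223, against -0.0023 for 840 others). With the replicate block 6 calls were lost and the counts were 3 for HFD in WT and 1 for the difference of Pparα hep-/- from WT. Leaving out both arrays of lowest weight was chosen after seeing the data. The cause of these changes was not tested.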

Other observations

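Genes that take up and place the fatty acids were also measured. Of 4 tested acyl-CoA synthetases of the Acsl family, Acsl1 rose in WT mice on the HFD (0.70, limma adjusted p = 0.000411) and Acsl5 fell in Pparα hep-/- mice (-0.78, adjusted p = 5e-07). Of 3 acyltransferases of phospholipids, Agpat3 rose in the 3 genotypes (0.22, 0.32 and 0.21) and Mboat7 fell in them (-0.18, -0.21 and -0.16). Srebf1 was lower on CTRL in both mutants than in WT mice, by -1.08 with hepatocyte deletion and -0.93 with whole-body deletion (adjusted p = 7.43e-05 and 0.000483), whereas Fasn was lower than in WT in Pparα-/- mice (-1.38).

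Of the 10 genes, 6 had a promoter in the RefSeq table of GRCm38.p6, while Scd1, Scd2, Fads1 and Elovl3 had none there and were not searched. The letters TCACNCCAC, searched on both strands of windows of 300 bases, were in none of the 6 and in 1.24% of 32851 windows of the same length. CACGTG was in that of Elovl5 and in 7.15% of all windows.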
